A study of Homo sapiens with 6 samples.

Results

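Long intergenic non-coding RNAs (lincRNAs) are transcribed from genes that lie between protein-coding genes and have no recognised protein product. Some are spliced and exported, some stay in the nucleus, and many are present at low levels that differ between cell types. Several have been linked to cancer, among them SNHG4, whose introns carry a small nucleolar RNA, and UCA1, first described in bladder carcinoma and later in colorectal tumours.

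RNA sequencing was analysed in HCT116, a human colorectal carcinoma line, after transfection with an siRNA against the lncRNA AC010789.1 (si-AC010789.1, 3 libraries) or with a control siRNA (siRNA-NC, 3 libraries). All 6 libraries came from this 1 cell line, and p-values measure the spread between these libraries. The labels do not describe the replicates, which the study speaks of as biological repeats and, as a possibility, as cells of different generations. The members were all genes with a row in the deposited transcript count table whose gene type in GENCODE release 29 is lincRNA. There were 14 such genes, with 19 transcript rows, of 18768 genes with a row. GENCODE release 29 holds 7635 lincRNA genes, so that 0.183% of them had a row. Other lincRNA genes were not analysed here. No matched row was that of AC010789.1, so the labels could not be checked here against the siRNA's target. The study itself reports a check of knockdown efficiency in its RNA-seq samples.

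Libraries held 11277222 to 13443866 counts, and their log2 CPM values (CPM are counts scaled to the same library total) correlated at r = 0.9679 to 0.9771 across genes, which are not independent replicates. Of 7 epithelial markers 5 had a row, and KRT8 stood at 719 ± 137 CPM (SD, n = 3) with siRNA-NC against 534 ± 111 CPM (n = 3) after si-AC010789.1. EPCAM stood at 3.62 ± 0.479 and 4.97 ± 0.941 CPM (SD, n = 3 each), and CDH1, which encodes E-cadherin, at 0.688 ± 0.0186 and 0.908 ± 0.13 CPM (SD, n = 3 each). Of 5 fibroblast markers 4 had a row, with a summed level of 59.6 to 69.2 CPM per library, among them COL1A1 at 43.3 ± 4.82 CPM with siRNA-NC against 44.5 ± 4.03 CPM with si-AC010789.1 (SD, n = 3 each). COL3A1 stood at 3.26 ± 0.713 and 2.19 ± 0.394 CPM (SD, n = 3 each), a log2 fold change of -0.57 (edgeR adjusted p = 0.31). CD14 was the leukocyte marker with a row, of 5 on the list, and its summed level was 0 to 1.13 CPM. None of the tested genes of these 3 marker lists passed the test between groups. CDH1, with 8, 9 and 9 counts with siRNA-NC against 10, 10 and 13 with si-AC010789.1, was not tested.

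The sequences that bear most on how member counts can be read are those that members share with other genes. SNHG4 and the protein-coding gene MATR3 start on the same exons and then diverge. The window below covers bases 210 to 239 of the listed SNHG4 transcript, across an exon junction, with the last shared bases in capitals.
SNHG4: CAAGATAAGTAACGAtcccgttgaagatac
MATR3: CAAGATAAGTAACGAggttgacaaacagcc
FAM230C, on chromosome 13, belongs to a family of near-identical RNAs on chromosome 22. The next window is the 60-base stretch with the most differences, bases 621 to 680 of the FAM230C transcript (chr13:18230675-18230734, plus strand, GRCh38), with the columns that differ in capitals. Across these 60 bases FAM230C differed from AP000552.1 and from FAM230B at 5 bases each, and from AC007731.1 at 4 bases.
FAM230C: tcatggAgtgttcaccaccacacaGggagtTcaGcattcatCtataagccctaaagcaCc
AP000552.1: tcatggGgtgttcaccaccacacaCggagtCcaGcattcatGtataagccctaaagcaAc
FAM230B: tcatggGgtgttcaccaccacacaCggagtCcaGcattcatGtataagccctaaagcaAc
AC007731.1: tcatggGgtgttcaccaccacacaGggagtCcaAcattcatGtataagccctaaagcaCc

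The lincRNA type was the least represented of the 4 gene types compared. Which annotation was counted, and whether rows were selected by type, are not given in the sources used here, so these shares describe the table and not the level of lincRNAs in HCT116. Of annotated protein-coding genes 73.2% had a row (14618 of 19969), of processed_transcript genes, a mixed class of non-coding RNAs, 28.1% (169 of 601), and of antisense genes 7.5% (419 of 5587). By transcripts the shares were 0.144% for lincRNA genes (19 of 13188), 5.71% for antisense, 12% for processed_transcript and 62.0% for protein-coding genes. The name lincRNA is also given to single transcripts, and 180 rows carried it as their transcript type. Of these, 19 belonged to the 14 members, 151 to processed_transcript genes and 10 to protein-coding genes. No row of the table had a total under 3 counts over the 6 libraries.

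**Figure D1:**
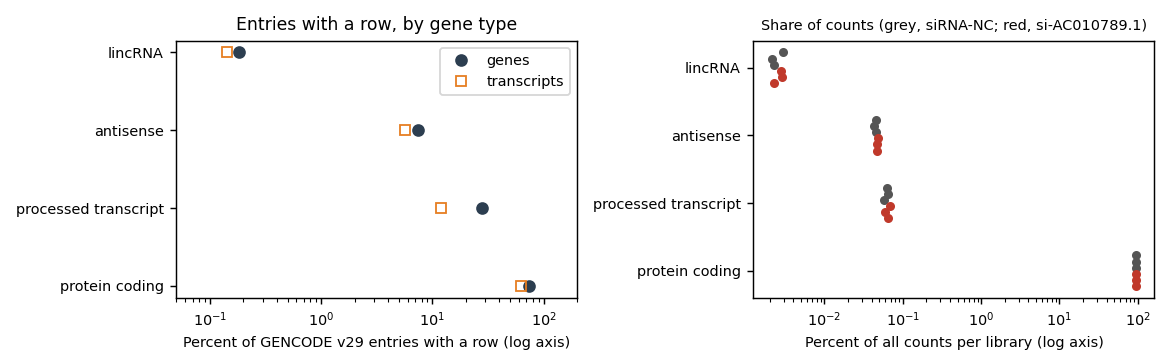
Left, percent of GENCODE release 29 genes (filled circles) and transcripts (open squares) of 4 gene types with a row in the table, on a log axis; right, percent of all counts that each type took in each library, on a log axis. The lincRNA points lie lowest in both panels, at 0.183% of genes and 0.00212% to 0.00293% of counts.

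Members took 330, 282 and 306 counts in the siRNA-NC libraries and 320, 357 and 282 counts in the si-AC010789.1 libraries. As a share of all counts this was 0.00293%, 0.00212% and 0.00228% with siRNA-NC against 0.00278%, 0.00287% and 0.00228% with si-AC010789.1. The groups overlapped, with 0.00244 ± 0.000428% and 0.00264 ± 0.000317% (SD, n = 3 each; exact two-sided permutation test, p = 0.6, where the smallest possible p is 0.1). LINC00842 held 48.9% of the 1877 counts of all members, and the 6 members that passed the filter on low counts held 94.1%.

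Annotated exons of 9 of the 14 members share bases with another gene, on either strand, and 7 share them with a protein-coding gene. Among the 6 tested members, 4 share them with any gene and 3 with a protein-coding gene. The shared part was small in LINC00842 (4.6% of its transcript) and SNHG4 (12.3%). It was the larger part in AC107959.4 (65.8%) and in SOD2-OT1, where 95.9% of bases were shared and 84.9% lay opposite another gene. FAM230C and AC005736.1 shared no exon base. Whether reads were counted by strand is not given in the sources used here, so reads of a member and of a gene on its opposite strand cannot be told apart.

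**Figure D2:**
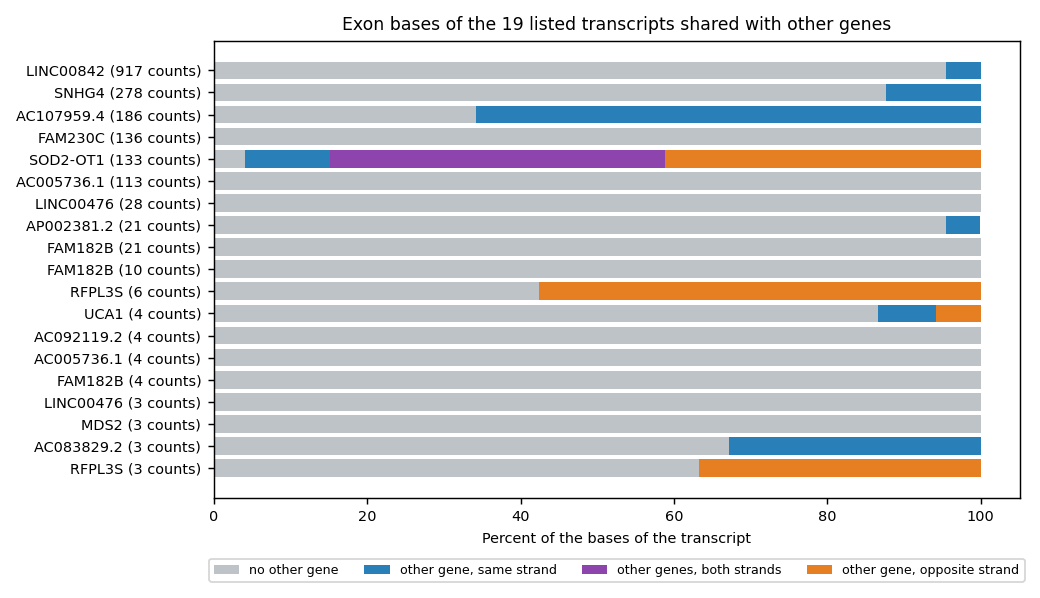
Percent of the bases of each of the 19 listed transcripts (bars, most counts at the top, total over 6 libraries in brackets) that fall in exons of no other gene, of another gene on the same strand, of genes on both strands, or of another gene on the opposite strand. SOD2-OT1, at 95.9%, has the largest shared part, followed by AC107959.4 at 65.8%.

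The comparison of the 2 groups asked which lincRNA genes differed once AC010789.1 was silenced. None of the 6 tested members passed an adjusted p of 0.05 (edgeR quasi-likelihood test, Benjamini-Hochberg over 13764 genes), where 130 of all tested genes, or 0.944%, did so, 37 higher and 93 lower. A count of 0 among 6 genes is near that background. No member had an unadjusted p under 0.05 either, against 17.2% of all tested genes. At the study's own criteria, an unadjusted p under 0.05 with an absolute log2 fold change over 1, the count was again 0 of 6, against 107 genes or 0.777% over all. None of the 6 had groups that did not overlap in CPM, against 25.1% of tested genes. Fitted changes were positive in 5 of 6, with a median log2 fold change of 0.195 beside -0.000593 over all tested genes. On single transcript rows, 6 members' rows were tested and none passed, where 6 of 44297 rows, or 0.0135%, did so over the whole table. By comparison with the other non-coding types, 1 of 107 tested antisense genes was called higher and none of 75 tested processed_transcript genes was called.

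LINC00842 (ENSG00000285294.1, chr10:46398362-46453306, plus strand, GRCh38) is a spliced lincRNA in a duplicated stretch of chromosome 10 that also carries annexin A8 genes. Its counts were 151, 148 and 140 with siRNA-NC against 148, 186 and 144 after si-AC010789.1, or 13.4, 11.2 and 10.5 CPM against 12.9, 14.9 and 11.7 CPM. The second si-AC010789.1 library was highest, and the groups overlapped. Means were 11.7 ± 1.51 and 13.1 ± 1.61 CPM (SD, n = 3 each), with a log2 fold change of 0.17 (SE 0.14, edgeR adjusted p = 0.596). The 95% interval of the fold, 0.888 to 1.43, was the narrowest among members. The first bases of the transcript are 99.34% identical to AC245041.2 and 97.38% identical to ANXA8, over 302 and 305 aligned bases. ANXA8, which encodes a calcium-dependent phospholipid-binding protein, had a log2 fold change of -0.18 (edgeR adjusted p = 0.283), and the nearest protein-coding gene, ANXA8L1, one of -0.21 (edgeR adjusted p = 0.209).

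SNHG4 (ENSG00000281398.4, chr5:139274102-139284899, plus strand) had a row for 1 of its 9 annotated transcripts. Counts were 74, 25 and 41 with siRNA-NC against 54, 51 and 33 after si-AC010789.1, or 6.56, 1.88 and 3.08 CPM against 4.72, 4.07 and 2.67 CPM. The si-AC010789.1 values all fell between the lowest and the highest siRNA-NC library. The first siRNA-NC library stood 3.48 times above the second, and their 95% counting intervals, 5.15 to 8.23 and 1.22 to 2.78 CPM, did not overlap. Means were 3.84 ± 2.43 and 3.82 ± 1.05 CPM (SD, n = 3 each), and the fitted log2 change was 0.01 (SE 0.47, edgeR adjusted p = 0.997). Its 95% interval ran from -1.12 to 1.13, so changes of either sign within it were compatible with these counts.

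The first 224 aligned bases of the SNHG4 transcript are shared with ENST00000394800, a transcript of MATR3 (ENSG00000280987.4), which encodes matrin 3, an RNA-binding protein of the nuclear matrix. That MATR3 transcript, singled out after its values were seen, had 250, 242 and 536 counts with siRNA-NC against 2, 3 and 3 after si-AC010789.1. Its groups lay far apart, with a log2 fold change of -6.88 (SE 0.482, 95% interval -8.09 to -5.68) and an edgeR adjusted p over all transcripts of 0.0767, which missed the 0.05 threshold. Summed over its rows, the MATR3 entry ENSG00000280987.4 had 665, 791 and 1381 counts with siRNA-NC against 544, 685 and 808 after si-AC010789.1. That entry's log2 fold change was -0.41 (SE 0.25, edgeR adjusted p = 0.454). The SNHG4 groups overlapped, beside a transcript with which it shares its first exons. How reads from the shared bases were divided is not given in the sources used here. SIL1, a cofactor of the chaperone BiP that lies on the opposite strand, had a log2 fold change of 0.11 (edgeR adjusted p = 0.721).

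SNHG4 is 1 of 37 small nucleolar RNA host genes on a list drawn up for comparison, of which 22 had a row and 14 were tested. None was called, 9 of 14 had a positive fitted change, and the median log2 fold change was 0.039, close to that of all tested genes. GAS5, a host gene with growth-arrest functions, stood at 12.8 ± 4.11 CPM with siRNA-NC against 10.7 ± 2.85 CPM with si-AC010789.1 (SD, n = 3 each). SNHG20 was the one gene of the 14 with an unadjusted p under 0.05, a threshold that 17.2% of all tested genes passed. Its counts were 6, 5 and 1 against 11, 14 and 15, and its groups did not overlap, as in 25.1% of tested genes (log2 fold change 1.75, SE 0.54, edgeR adjusted p = 0.183).

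AC107959.4 (ENSG00000284948.1, chr8:23084355-23103558, plus strand) carries a readthrough tag in the annotation, which marks transcripts that join exons of neighbouring genes. Counts were 27, 23 and 38 with siRNA-NC against 36, 33 and 29 after si-AC010789.1, or 2.39, 1.73 and 2.85 CPM against 3.14, 2.64 and 2.35 CPM. Groups overlapped, with means of 2.33 ± 0.561 and 2.71 ± 0.403 CPM (SD, n = 3 each) and a log2 fold change of 0.22 (SE 0.25, edgeR adjusted p = 0.713). It shares 498 aligned bases with TNFRSF10C, which encodes a decoy receptor for the death ligand TRAIL. TNFRSF10C had 37, 36 and 44 counts with siRNA-NC against 3, 29 and 21 after si-AC010789.1, with the first si-AC010789.1 library far below the others. Its groups did not overlap, as in 25.1% of tested genes. The log2 fold change of -1.10 (SE 0.57, edgeR adjusted p = 0.386) did not pass the test.

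FAM230C (ENSG00000279516.1, chr13:18195297-18232024, plus strand) had the largest fitted change among the tested members with all libraries in the fit, and the narrowest range of si-AC010789.1 values. With a library left out its log2 fold change ran from 0.12 (without siRNA-NC 3) to 0.5 (without siRNA-NC 2), and other members then had larger changes in 4 of 6 cases. Counts were 19, 27 and 16 with siRNA-NC against 22, 26 and 26 after si-AC010789.1, or 1.68, 2.04 and 1.2 CPM against 1.92, 2.08 and 2.11 CPM. The second siRNA-NC library lay among the si-AC010789.1 libraries, so the groups overlapped. Means were 1.64 ± 0.419 and 2.03 ± 0.0989 CPM (SD, n = 3 each), with a log2 fold change of 0.31 (SE 0.26, edgeR adjusted p = 0.594). Transcripts of 11 other genes align to it at 95% identity or more over at least 100 bases, and the 3 shown above cover most of it, at 96.66% over 1857 bases for AP000552.1, 96.61% over 1857 bases for FAM230B and 96.37% over 1871 bases for AC007731.1. None of these 3 had a row, and the count of FAM230C is uncertain to the extent that reads of the copies could be placed on it.

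SOD2-OT1 (ENSG00000285427.1, chr6:159760258-159762332, minus strand) lies across exons of SOD2, the gene of mitochondrial superoxide dismutase, and opposite exons of ACAT2, which encodes a cytosolic acetyl-CoA acetyltransferase. Counts were 16, 19 and 28 with siRNA-NC against 29, 24 and 17 after si-AC010789.1, or 1.42, 1.43 and 2.1 CPM against 2.53, 1.92 and 1.38 CPM. The lowest and the highest library both belonged to si-AC010789.1. Means were 1.65 ± 0.39 and 1.94 ± 0.579 CPM (SD, n = 3 each), with a log2 fold change of 0.23 (SE 0.31, edgeR adjusted p = 0.766). ACAT2 stood at 240 ± 11 and 258 ± 7.71 CPM (SD, n = 3 each), a log2 fold change of 0.11 (SE 0.05, edgeR adjusted p = 0.337), and 1311 of its bases align antisense to SOD2-OT1. The overlapping SOD2 entry (ENSG00000285441.1) had 5, 0 and 0 counts against 0, 0 and 4.

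AC005736.1 (ENSG00000262185.2, chr16:3931217-3950586, minus strand) was the only tested member with a negative fitted change. Counts were 27, 21 and 16 with siRNA-NC against 19, 25 and 9 after si-AC010789.1, or 2.39, 1.58 and 1.2 CPM against 1.66, 2 and 0.729 CPM. The third si-AC010789.1 library was lowest and the other two lay within the siRNA-NC values. Means were 1.73 ± 0.609 and 1.46 ± 0.657 CPM (SD, n = 3 each), with a log2 fold change of -0.23 (SE 0.44, edgeR adjusted p = 0.834). Its nearest protein-coding gene, ADCY9, an adenylate cyclase gene 2801 bases away, stood at 146 ± 1.72 and 160 ± 1.38 CPM (SD, n = 3 each), a log2 fold change of 0.14 (SE 0.04, edgeR adjusted p = 0.163).

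Per kilobase of listed transcript, LINC00842 was the highest tested member in each of the 6 libraries, at 4.05 ± 0.542 CPM per kb with siRNA-NC against 4.58 ± 0.579 with si-AC010789.1 (SD, n = 3 each). AC107959.4 followed in the mean over all libraries at 2.02 CPM per kb and SNHG4 at 1.61, with 1.86 ± 0.446 and 1.61 ± 1.02 CPM per kb under siRNA-NC and 2.18 ± 0.318 and 1.6 ± 0.437 under si-AC010789.1 (SD, n = 3 each). Libraries of these neighbours overlapped in both groups, although their si-AC010789.1 means lay further apart than either SD. AC005736.1, SOD2-OT1 and FAM230C lay lowest, at 1.17, 1.04 and 0.931 CPM per kb, and neighbours in that order differed by less than the larger of their SDs in each group.

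**Figure D3:**
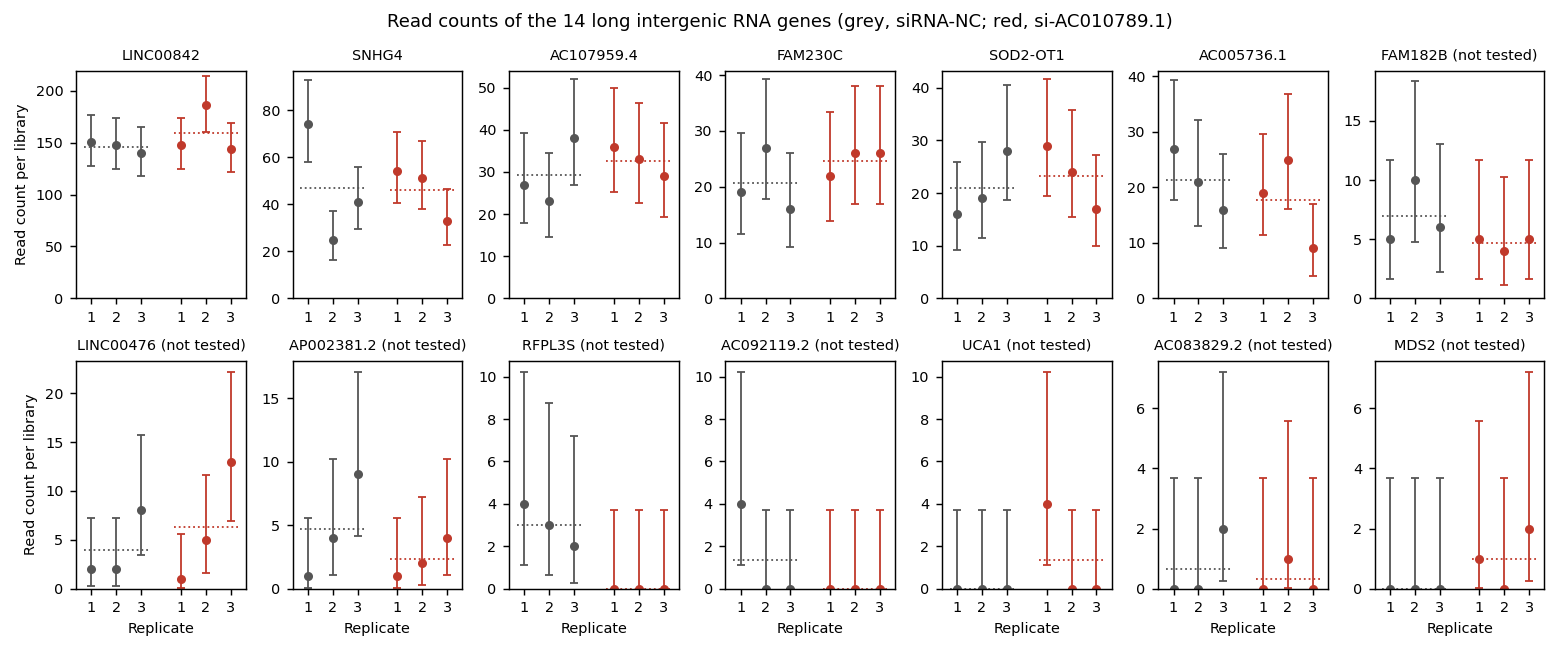
Read counts of the 14 members in each library (grey, siRNA-NC; red, si-AC010789.1; points are libraries, bars are exact Poisson 95% intervals that cover counting error only, dotted lines are group means), each panel on its own axis from 0. All 6 tested genes have overlapping groups, and RFPL3S has counts of 4, 3 and 2 with siRNA-NC, while the other group is at 0 throughout.

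**Figure D4:**
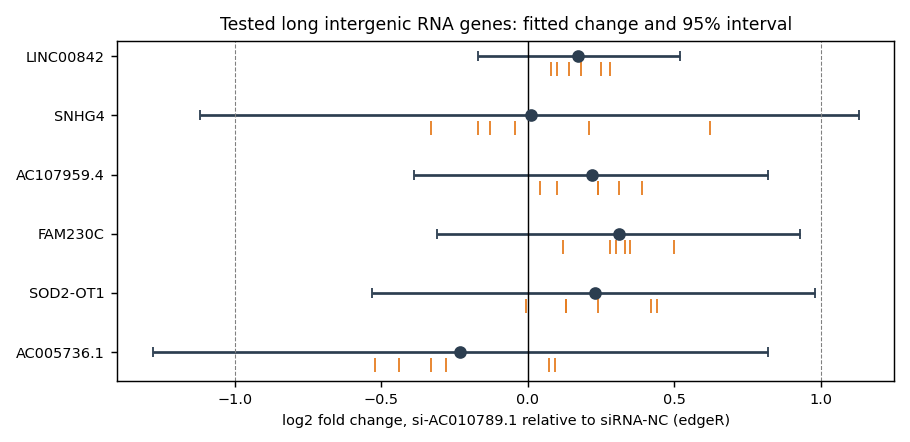
Fitted log2 fold change (points) of the 6 tested members with its 95% interval (bars), and the value with each library left out in turn (orange ticks); dashed lines mark an absolute log2 fold change of 1. All 6 intervals cross 0, from LINC00842 (-0.17 to 0.52) to AC005736.1 (-1.28 to 0.82).

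The other 8 members did not pass the filter on low counts, with at most 13 counts in any library, and were not tested. Intervals and limits for such counts cover counting error only, and a count of 0 allows up to 3 counts, or 0.223 to 0.266 CPM, in these libraries. By mean CPM, 7 of all 14 members were higher and 7 lower with si-AC010789.1, where SNHG4, at 3.84 against 3.82 CPM, was counted as lower.

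RFPL3S (chr22:32359906-32382052, minus strand), a transcript opposite the protein-coding gene RFPL3, had 4, 3 and 2 counts with siRNA-NC against 0 in all 3 si-AC010789.1 libraries. Its groups did not overlap (exact two-sided permutation test, p = 0.1, the smallest possible), as in 20.7% of all 18768 genes with a row. With 0 counts in the si-AC010789.1 group, no fold was measured. Setting the 9 siRNA-NC counts against an assumed limit of 3 counts over the si-AC010789.1 group gave a ratio of 2.86. That ratio leaves out the counting error of the 9 counts and the spread between libraries, so it is not a lower bound. With no filter on low counts it was 1 of 14 members at the study's criteria, where 332 of all genes with a row, or 1.77%, were. Of its first listed transcript 57.6% of bases lie opposite exons of other genes, and RFPL1, RFPL2 and RFPL3 match it at 95.62%, 97.95% and 100% over 593, 586 and 592 bases on the opposite strand. FAM182B (chr20:25763466-25868225, minus strand), summed over 3 of 9 transcripts, had 5, 10 and 6 counts against 5, 4 and 5. Its CPM values lay just apart, the lowest with siRNA-NC at 0.443 and the highest with si-AC010789.1 at 0.437 (exact two-sided permutation test, p = 0.1), although both libraries held 5 counts.

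UCA1 (chr19:15828206-15836326, plus strand), the one member on a list of colorectal cancer-linked lncRNAs, had a row for 1 of 36 annotated transcripts, with 0 counts in all siRNA-NC libraries and 4, 0 and 0 with si-AC010789.1. All its counts therefore came from 1 library. LINC00476 (chr9:95759231-95875977, minus strand) had 2, 2 and 8 counts against 1, 5 and 13, and the 12.1-fold range of CPM within si-AC010789.1 was the widest among members with no library at 0. AP002381.2 (chr11:72793624-72814054, minus strand), which shares 4.46% of its bases with the lipid transfer protein gene STARD10, had 1, 4 and 9 counts against 1, 2 and 4. Groups overlapped in both genes.

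The last 3 members had counts in 1 or 2 libraries. AC092119.2 (chr16:21950218-21951708, minus strand) had 4 counts in the first siRNA-NC library and 0 elsewhere. AC083829.2 (chr4:88523826-88524983, plus strand) had 2 counts in the third siRNA-NC library and 1 in the second si-AC010789.1 library. MDS2 (chr1:23581495-23640568, plus strand), a gene named for a translocation in myelodysplastic syndrome, had 1 count in the first si-AC010789.1 library, 2 in the last and 0 in the others. At this depth no difference in these genes was detectable.

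The study examined pairing of AC010789.1 with miR-432-3p, so the listed member transcripts were searched, on the sense strand, for matches to the seed of this microRNA, bases 2 to 8, in capitals in the RefSeq sequence below.
hsa-miR-432-3p: cUGGAUGGcuccuccaugucu
The letters searched were CCATCCA and CATCCAA, each of 7 bases, and CATCCA, which both contain. A 7-base match was found in 4 of 19 rows, in 3 genes, and a 6-base match in 10 rows, in 9 genes. Listed transcripts of like length (within 10%) held a 7-base match in 18.9% of cases for the main AC005736.1 transcript, 22.1% for the longest FAM182B transcript and 17.4% for the longer RFPL3S transcript. Summed over the 19 rows such shares come to 3.09 rows with a 7-base and 6.45 with a 6-base match. The 3 sites are shown in 30-base windows with the match in capitals, at chr16:3948453-3948482, chr20:25848880-25848909 and chr22:32360251-32360280, all on the minus strand (GRCh38).
AC005736.1: taaatatttatCCATCCAtagactagaata
FAM182B: gcctctgacagCATCCAAtctggagcaaag
RFPL3S: ggctgtgtcggCATCCAAggtcatatccac
Mean levels of all 3 genes were lower with si-AC010789.1, but of these only AC005736.1 was tested, with the overlapping groups given above. Of the 9 genes with a 6-base match 6 had a lower mean CPM and 3 a higher one, FAM230C, LINC00476 and UCA1. Among the lower ones only SNHG4 and AC005736.1 were tested. SNHG4 stood at 3.84 against 3.82 CPM, with a fitted log2 change of 0.01, and the untested ones had low counts. LINC00842, AC107959.4 and SOD2-OT1 held none of these letters, and their fitted changes did not pass the test either. The untested AP002381.2 and MDS2 also held none. Mean levels with siRNA-NC against si-AC010789.1 were 0.355 and 0.19 CPM for AP002381.2 and 0 and 0.0831 CPM for MDS2. Over all 14 members, matched or not, 7 had a lower mean CPM with si-AC010789.1.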

How the data were processed

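RNA libraries (paired-end, TruSeq) were analysed from 3 siRNA-NC and 3 si-AC010789.1 samples of HCT116. The deposited table holds raw counts as the authors made them, in whole reads for each Ensembl transcript in each library, not normalized. The submitters' processing notes name CASAVA 1.8, TopHat2 2.0.6 and the builds GRCh38 and mm10, with no role stated. The counting program, its annotation and its use of strand are not given in the sources used here. Of 98886 rows 98803 matched a GENCODE release 29 transcript, and the other 83 held 0.05858% to 0.09305% of counts per library.

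Counts were summed per gene, and CPM used the total of the tested genes in each library, scaled by its TMM factor. CPM per kb, shares of counts and the limits for counts of 0 used the total of all rows. Genes passing filterByExpr (minimum count 10, total 15) were tested with edgeR 4.0.16 (R 4.3.3) by TMM and the quasi-likelihood test, Benjamini-Hochberg over all of them, two-sided, with the common biological coefficient of variation at 0.1703. Standard errors of log2 fold changes were derived from the fold change and the F statistic of that test. The 95% intervals built from them are symmetric on the log2 scale, also where a group had few counts. The edgeR fit was tested on simulated counts. DESeq2 1.42.0, size factors by RLE, other filters, a replicate block and leaving out each library were alternatives. Cuffdiff, which the study used, needs alignments and was not run. Depth was 11277222 to 13443866 counts per library, and exact Poisson intervals (95%) cover counting error only. Exon sharing was computed from GENCODE release 29 (GRCh38), and copies with BLAST+ 2.17.0 (at least 95% identity over 100 bases). The microRNA sequence came from RefSeq and transcript sequences from GENCODE release 29.

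The members, gene lists and tests were chosen with earlier results of these data known. The naming rule took any lincRNA gene called, the 12 with the highest mean CPM, the tested genes by size and sign of change, members of the gene lists, and those with the widest and narrowest range, and with 14 members all were described. Partner genes were named by shared exons, sequence or nearness. One sequence is not reported here.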

Additional observations from a re-analysis of the deposited data

How the results depend on the processing

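Under every alternative run (DESeq2, RLE size factors, no filter, a mean CPM of at least 1, the block, and each library left out), 0 member genes had an adjusted p under 0.05, and the lowest adjusted p among them was 0.184 to 0.747. For single transcripts, run with DESeq2, no filter, the block and each library left out, the count was 0 as well. That count was also 0 among the 2 tested members with no exon overlap. With DESeq2, 1 of 14 members received an adjusted p, so its count of 0 rests on LINC00842. Without the filter on low counts, 1 member, RFPL3S, met the study's criteria (1.77% of all genes did) and 2 members had groups that did not overlap (20.7% of all genes), because 14 genes were then counted. The number of all genes called was 130 in the main test, 69 without the filter, 557 with DESeq2 and 12 to 37 with a library left out. Replicate numbers were not taken as pairs, since no source says that a number marks cells shared by both groups and deviations of same-numbered libraries correlated at r = 0.112, 0.0108 and 0.0167, and with the replicate block in edgeR 0 members and 0 genes in all were called (111 genes met the study's criteria), with a median of 0.193 for the tested members.

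The median log2 fold change of the members ranged from 0.0462 to 0.268 with a library left out, and the difference in share of counts (si-AC010789.1 minus siRNA-NC) from 4.28e-05 to 0.000447 percentage points, beside 0.000204 with all. Of 66 fold change values of tested members under alternatives 58 kept their sign. SNHG4 turned to -9.9e-05 with no filter, and with a library left out it ran from -0.33 (siRNA-NC 2) to 0.62 (siRNA-NC 1), also turning to -0.13 (siRNA-NC 3), -0.17 (si-AC010789.1 1) and -0.043 (si-AC010789.1 2). AC005736.1 ran from -0.52 to 0.094 and turned positive without siRNA-NC 1 (0.071) and si-AC010789.1 3 (0.094). SOD2-OT1 ran from -0.0069, its one negative value, without si-AC010789.1 1, to 0.44. None of these passed a test, and the cause was not tested. At this depth, with 3 libraries a group, the 95% intervals of the 6 log2 fold changes reached down to -1.28 and up to 1.13. Each included 0, and changes within a gene's own interval were compatible with its counts.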

Other observations

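Long non-coding RNAs that the literature often calls lincRNAs were in part listed under other gene types. Of 53 names on a list of colorectal cancer-linked lncRNAs 8 had a row, 4 were tested and none was called, with a median log2 fold change of -0.624 over the 4, and UCA1 was the only one of lincRNA type. CASC19, a lncRNA gene near MYC, had the most counts of the list, with 1690, 1671 and 1776 counts with siRNA-NC against 1681, 1801 and 1837 after si-AC010789.1 (log2 fold change 0.10, SE 0.07, edgeR adjusted p = 0.507). TUG1 had 182, 7 and 26 counts with siRNA-NC against 4, 4 and 18, where the first siRNA-NC library held most of the counts and the groups overlapped (log2 fold change -3.08, SE 1.33, edgeR adjusted p = 0.306).

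Of 17 nuclear and chromatin-linked names 6 had a row, and of the 3 tested none was called, with a median log2 fold change of -0.627. Of 17 p53-linked names 2 had a row, LINC-PINT and TUG1, and neither was called. Their log2 fold changes were 0.27 and -3.08, with a median of -1.41. TUG1 is also on the nuclear and the colorectal cancer-linked lists, and LINC-PINT on the nuclear list and on the small-peptide list below. The medians of these lists are therefore not separate observations. Of 41 microRNA host genes 3 had a row and none was tested, and MIR100HG had 42 counts in the second siRNA-NC library and 0 in the other 5. Of 27 genes once annotated as lincRNAs for which a small peptide was later reported, 8 had a row, 7 of them now of protein-coding type. Of the 6 tested none was called, 5 had a positive fitted change, and the median was 0.342. Among them NBDY, which encodes a microprotein of the mRNA decapping complex, had 146, 178 and 123 counts against 149, 190 and 182, and the groups overlapped (log2 fold change 0.27, SE 0.16, edgeR adjusted p = 0.453).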
